A study of Rattus norvegicus with 10 samples.

Results

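The cytosolic ribosome is built from ribosomal RNA and a fixed set of proteins, the large-subunit proteins (Rpl genes), the small-subunit proteins (Rps genes), and the proteins of the stalk (Rplp0, Rplp1 and Rplp2). Their messages are short, abundant and made in every cell. Many of them begin with a 5′ terminal oligopyrimidine tract, a C at the first base followed by a run of pyrimidines, through which mTOR signalling controls their translation more than their abundance. In neurons, ribosomes and ribosomal protein messages are also found in dendrites and axons. The count matrix held 81 cytosolic ribosomal protein genes among 32041 features, 50 of the large and 31 of the small subunit. They were chosen by symbol and curated transcript record, a single record per symbol. The rule used no test result of these genes, but it was set with earlier results of these data known. Of these, 78 passed the filter on low counts and were tested among 22447 features. The 3 others, Rpl27l2, Rpl39l1 and Rps12l4, are named as paralogs and had too few counts.

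The samples were polyadenylated RNA of the left hippocampus (tissue holding CA3 and the dentate gyrus) of 10 male outbred Sprague-Dawley rats, each sequenced as a library of its own. The 5 sham rats (rats 1 to 5) carried the electrodes but were not stimulated. The 5 stimulated rats (rats 6 to 10) went through status epilepticus evoked by electrical stimulation of the left amygdala and, per the study, later had spontaneous seizures. Diazepam was injected to end the status epilepticus, and the labels name it for the stimulated rats alone, so its part and that of the seizures cannot be told apart. Both groups had surgery under isoflurane with butorphanol. Tissue was taken 3 months after status epilepticus, so the comparison is of established epilepsy with surgery alone and holds no early time point. The libraries held 13552309 to 24086059 aligned counts, of which 138597 to 277958 per rat fell on ribosomal protein genes. The share of reads that did not align was 32.8% to 37.1% in the sham rats and 32.0% to 45.1% in the stimulated rats, with stimulated rats 8, 9 and 10 above all sham rats. The 5 records of ribosomal RNA took 1.82% to 12.2% of the aligned counts. Of the marker lists, all 7 neuronal genes were detected and tested, with a summed level of 3069 to 3546 CPM (counts scaled to the library size), so the neuronal markers of the labelled tissue were present.

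The annotated starts of the genes were searched for the tract that the translation of this family is known for. RefSeq (build GRCr8) gave a promoter entry for 66 of the 81 symbols. A C followed by at least 4 pyrimidines stood exactly at the annotated start, on the strand of the gene, in 23 of the 66 (34.85%), against 2.63% of all 33469 promoter entries. Within 5 bases of the annotated start on either side it was found for 39 of the 66 genes (59.1%) and in 17.0% of all entries. A gene counted if any of its entries matched, while the background counts single entries. The shares of genes and of entries are thus not in the same unit, and genes with several entries raise the former. The following 30 bases, 15 before and 15 from the annotated start, show members with the tract at the start (Rplp0, Rplp1, Rpl22, Rpl10, Rpl31), a member with a long tract that begins 2 bases before it (Rps23), and members without one within 5 bases of the start (Rps19, Rpl22l1, Rpl3l). Capitals mark the matched tract at or near the start. All other pyrimidines are left in lower case, also those that directly precede a tract matched at the start.
Rplp0: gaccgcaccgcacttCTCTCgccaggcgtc
Rplp1: gcaggcgcatgtgatCCTTTCCTCagctgc
Rpl22: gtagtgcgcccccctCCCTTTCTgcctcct
Rpl10: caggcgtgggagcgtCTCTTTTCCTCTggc
Rpl31: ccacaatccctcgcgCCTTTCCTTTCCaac
Rps23: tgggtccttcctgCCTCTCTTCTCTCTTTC
Rps19: cccgacttgtgcgcccgggaaaccccgtcg
Rpl22l1: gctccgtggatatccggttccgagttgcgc
Rpl3l: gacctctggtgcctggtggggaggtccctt
In GRCr8 these windows lie at chr12:46718376-46718405 on the minus strand for Rplp0, chr8:71290858-71290887 (minus) for Rplp1, chr5:168117946-168117975 (plus) for Rpl22, chrX:157205835-157205864 (plus) for Rpl10 and chr9:49143096-49143125 (plus) for Rpl31. Rps23 lies at chr2:23814502-23814531 (plus), Rps19 at chr1:89608673-89608702 (plus), Rpl22l1 at chr2:113683181-113683210 (plus) and Rpl3l at chr10:14258431-14258460 (plus). Counted from the annotated start on, the tract spanned 12 bases in Rpl10 and Rpl31, 9 in Rplp1, 8 in Rpl22 and 5 in Rplp0. In Rplp0, Rplp1, Rpl22 and Rpl10 pyrimidines also directly precede the start, so their unbroken runs are longer than these lengths. A match is a description of the letters, and an annotated start one base off would miss it.

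Ribosomal protein genes showed no called difference between stimulated and sham rats. In edgeR's quasi-likelihood test with Benjamini-Hochberg adjustment over all tested features, 0 of the 78 genes had an adjusted p under 0.05, where 0% of all tested features did (0 of 22447). DESeq2 and edgeR's exact test, which called 33 and 89 features in all, also called 0 of the 78. At an unadjusted p under 0.05 there was 1 gene, Rps4y2, against 9.86% of all tested features, and in 0 of the 78 did the CPM of the groups not overlap, against 1.29% of features. Fold changes leaned slightly below 0: 52 of the 78 genes had a log2 fold change (stimulated over sham) below 0 and 26 above 0, with a median of -0.05, while 47.8% of all tested features lay below 0 and their median was 0.01. The lean depended on single libraries. With sham rat 5 left out, 39 of the 78 lay above 0 and the median was -0.0018. With stimulated rat 7 left out, 13 lay above 0.

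The fold changes were small for nearly the whole family. Of the 76 genes with a mean count of at least 100 per rat, all 76 had a log2 fold change within 0.25 of 0, a ratio of less than 1.19, where 80.8% of the 12722 features between the lowest and highest level of the 76 did. The lowest of the 76 was Rpl35a at 7.17 CPM. Those features were not matched to the 76 genes in level, and their median within-group SD was 0.198 against 0.162. The median standard error was 0.102 for the 76 genes and 0.172 for all tested features. The 95% intervals of 74 of the 76 lay within 0.5 of 0, so a change of 1.41-fold in the mean of the group lay outside them. The lowest bound of any of the 76 was -0.52 (Rps2) and the highest 0.60 (Rpl22l1). The median fold change was -0.05 for the 48 tested large-subunit genes, 14 of them above 0, and -0.06 for the 30 small-subunit genes, 12 of them above 0. It was -0.03 for the 23 genes with a tract at the annotated start and -0.06 for the 40 tested genes without one. In bulk tissue, fewer cells of a type and less RNA per cell cannot be told apart.

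**Figure D1:**
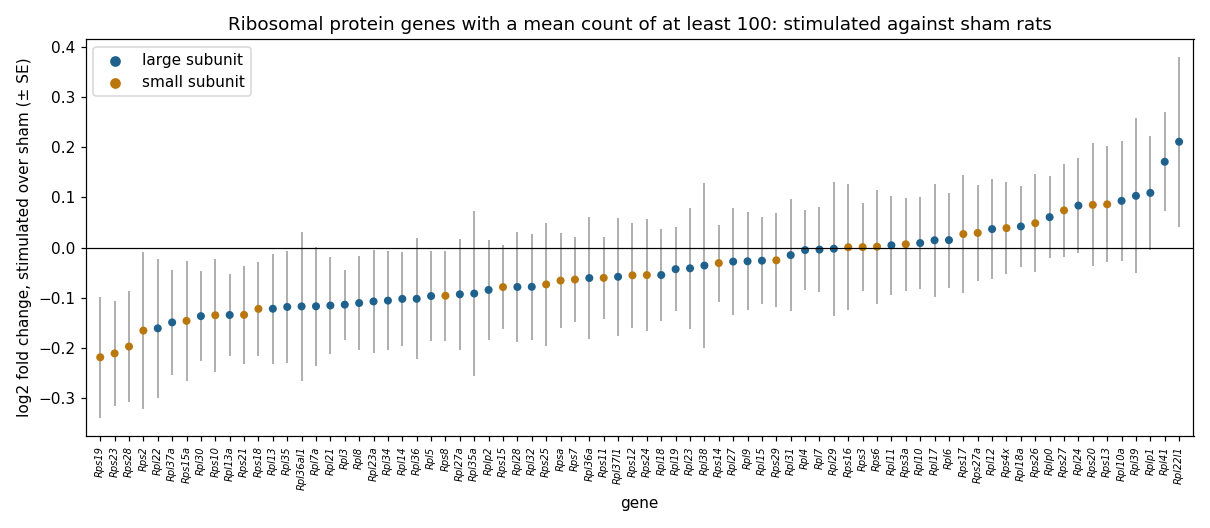
Log2 fold change (stimulated over sham, vertical axis, with its standard error) of the 76 ribosomal protein genes with a mean count of at least 100, in rising order, coloured by subunit. All points lie within 0.25 of 0, from Rps19 at -0.22 to Rpl22l1 at 0.21. The 4 lowest are small-subunit genes and the 2 highest, Rpl22l1 and Rpl41, large-subunit genes, with both subunits mixed in between.

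The lowest fold changes were those of the small-subunit genes Rps19, Rps23, Rps28 and Rps2. Rps19, the gene most often mutated in Diamond-Blackfan anaemia, stood at 70.2, 53.3, 48.7, 67.0 and 66.8 CPM in sham rats 1 to 5 and at 55.3, 49.3, 61.1, 45.1 and 52.3 CPM in stimulated rats 6 to 10. The groups overlapped, since sham rats 2 and 3 lay among the stimulated rats. The fold change of Rps19 on the log2 scale was -0.22 (SE 0.12), and the adjusted p in edgeR was 0.563. Rps23, whose protein lies close to the decoding centre, stood at 273, 299, 265, 284 and 335 CPM in the sham rats and 269, 254, 303, 212 and 220 CPM in the stimulated rats. Stimulated rats 9 and 10 were the lowest of all rats, and stimulated rat 8 was above 4 of the sham rats. The log2 fold change of Rps23 was -0.21 (SE 0.10, adjusted p = 0.530). For Rps28 the fold change was -0.20 (SE 0.11, adjusted p = 0.568), with 67.9 ± 8.67 CPM in the sham and 59.3 ± 6.74 CPM in the stimulated rats (SD, n = 5 each). Rps2, which has 36 pseudogene symbols in the current rat annotation, the most of any member, had 123 ± 29.2 CPM in sham and 109 ± 16.2 CPM in stimulated animals, and its fold change was -0.17 on that scale (SE 0.16).

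Among the genes with ample counts, Rpl22l1 and Rpl41 had the highest fold changes. Rpl41, which encodes a very short basic peptide of the large subunit, stood at 533, 472, 424, 552 and 586 CPM in sham rats 1 to 5 and at 545, 671, 542, 536 and 595 CPM in stimulated rats 6 to 10. The stimulated rats lay within the upper part of the sham range or above it, and the 2 lowest values were those of sham rats 2 and 3. The log2 fold change was 0.17 (SE 0.10, adjusted p = 0.577), and it was 0.11 without sham rat 3. Rpl22l1, a paralog of Rpl22 that can take its place in the ribosome, had 39.0, 22.6, 34.0, 35.8 and 46.3 CPM in the sham rats and 35.7, 53.1, 36.5, 43.7 and 37.2 CPM in the stimulated rats. Sham rat 2 alone was below all others. The log2 fold change of 0.21 (SE 0.17, adjusted p = 0.704) became 0.08 without that rat. Rpl22 itself stood at 24.4 ± 3.24 CPM in the sham and 21.8 ± 3.95 CPM in the stimulated group, and its log2 fold change was -0.16 (SE 0.14).

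**Figure D2:**
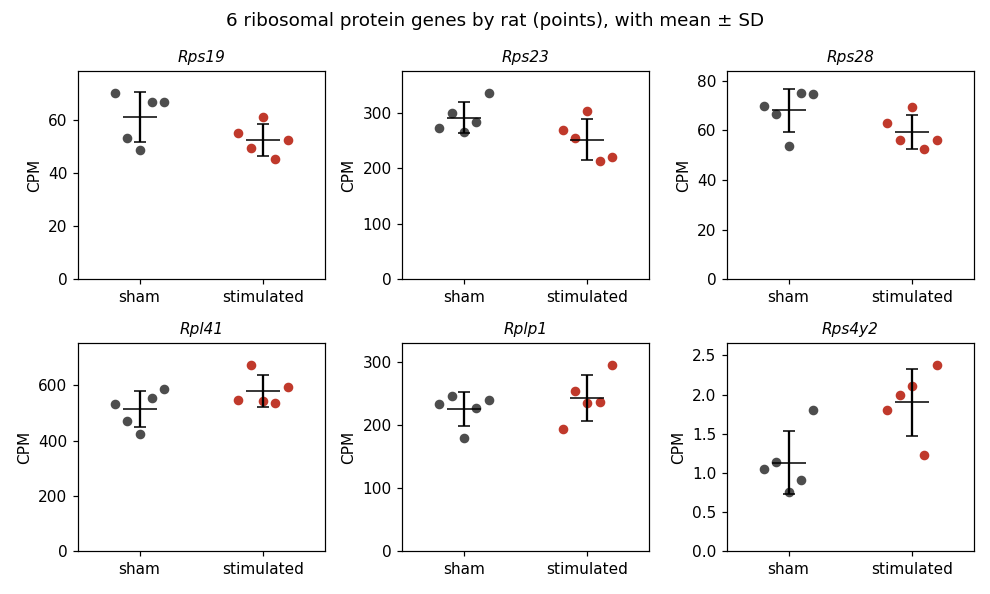
CPM (vertical axes, from 0) of 6 ribosomal protein genes in each of the 5 sham and 5 stimulated rats (points), with group mean ± SD (bars). The groups overlap in every panel, Rps4y2 included, where sham rat 5 at 1.80 CPM lies above stimulated rat 9 at 1.22 CPM.

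A pair of rarely counted paralogs stood apart in the size of the estimate. Rps4y2, a paralog of Rps4x, was counted at 1.05, 1.15, 0.762, 0.910 and 1.80 CPM in the sham rats and at 1.81, 2.00, 2.11, 1.22 and 2.37 CPM in the stimulated rats. Of the 5 stimulated rats, 4 were above every sham rat, and stimulated rat 9 was below sham rat 5. The log2 fold change was 0.73 (SE 0.29, 95% interval 0.08 to 1.39), and the adjusted p in edgeR over all tested features was 0.431. Rps4x, the parent gene on the X chromosome, stood at 99.1 ± 10.1 CPM in the sham and 102 ± 7.91 CPM in the stimulated rats (SD, n = 5 each, log2 fold change 0.04). Whether reads shared with Rps4x weigh on the counts of Rps4y2 was not tested. How shared reads were counted is not stated. Rpl3l, the paralog of Rpl3 known from heart and skeletal muscle, was at 0.174, 0, 0.163, 0.744 and 0.335 CPM in the sham rats and at 0.679, 0.650, 0.128, 1.22 and 0.877 CPM in the stimulated rats. Its log2 fold change of 1.21 (SE 0.65, adjusted p = 0.555) had an interval from -0.29 to 2.72. Both values rest on few reads. Rpl39l1, which was not tested, had 15 counts in sham rat 2 and 16 in sham rat 4 and between 0 and 4 in each of the other rats, and was chosen for mention after its values were seen.

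The stalk proteins, which bind the elongation factors, did not pass the test. Rplp0 stood at 539 ± 43.4 CPM in the sham and 562 ± 46.1 CPM in the stimulated rats (log2 fold change 0.06, SE 0.08). Rplp1 was at 233, 246, 180, 227 and 240 CPM in sham rats 1 to 5 and at 194, 254, 236, 237 and 294 CPM in stimulated rats 6 to 10 (log2 fold change 0.11, SE 0.11). Rplp2 stood at 46.0 ± 5.24 and 43.4 ± 2.91 CPM (log2 fold change -0.08, SE 0.10). Sham rat 3 was the lowest of the 10 rats for all 3 stalk genes. Rpsa, the small-subunit protein also known as a laminin receptor, was at 312 ± 37.3 CPM in the sham and 298 ± 27.1 CPM in the stimulated rats (log2 fold change -0.07, SE 0.10).

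For genes with known roles beyond the ribosome, the intervals of the fold changes included 0. Rpl5 and Rpl11, which bind Mdm2 when ribosome assembly fails, had estimates of -0.10 (SE 0.09) and 0.00 (SE 0.10) on the log2 scale. Rps6, the target of the ribosomal S6 kinases whose phosphorylation is widely used as a sign of mTOR activity and of recent neuronal firing, stood at 131 ± 16.7 CPM in the sham and 131 ± 18.6 CPM in the stimulated rats, and its 95% interval ran from -0.26 to 0.26 on the log2 scale. Counts of the message say nothing about that phosphorylation. Rps27a, which is made as a fusion with ubiquitin, had a log2 fold change of 0.03 (SE 0.09). The 5 genes with the highest mean CPM, which is not corrected for length, were Rpl3, Rpl41, Rplp0, Rps3 and Rpl4. Of these, Rpl3 stood at 704 ± 34.7 against 650 ± 40.9 CPM (log2 fold change -0.11, SE 0.07), Rps3 at 382 ± 37.3 against 382 ± 32.2 CPM and Rpl4 at 379 ± 20.1 against 378 ± 34.9 CPM. Rpl13a, often used as a reference gene, stood at 145 ± 10.8 CPM in the sham and 132 ± 9.36 CPM in the stimulated rats, which gave -0.13 on the log2 scale (SE 0.08).

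While no gene passed the test between the groups, the genes moved together from rat to rat. The mean of the log2 CPM of the 78 genes was 6.48, 6.40, 6.20, 6.47 and 6.62 in sham rats 1 to 5 and 6.39, 6.54, 6.47, 6.32 and 6.36 in stimulated rats 6 to 10. Sham rat 3 was the lowest and sham rat 5 the highest of all 10 rats, a ratio of 1.34, and the 5 stimulated rats lay between them. Sham rat 3 was below the mean of the 10 rats in 75 of the 78 genes and was the lowest rat in 38. Sham rat 5 was above that mean in 75 genes and the highest rat in 38. The same counts were not made over all tested features, so these cannot be read against a background. As a share of all aligned counts the 81 genes took 1.02%, 1.02%, 0.916%, 1.07% and 1.22% in the sham rats and 1.05%, 1.10%, 1.10%, 0.945% and 1.03% in the stimulated rats, with the same rats at the ends. The group means of the level were 6.43 ± 0.152 in the sham and 6.42 ± 0.0861 in the stimulated rats (SD, n = 5 each).

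**Figure D3:**
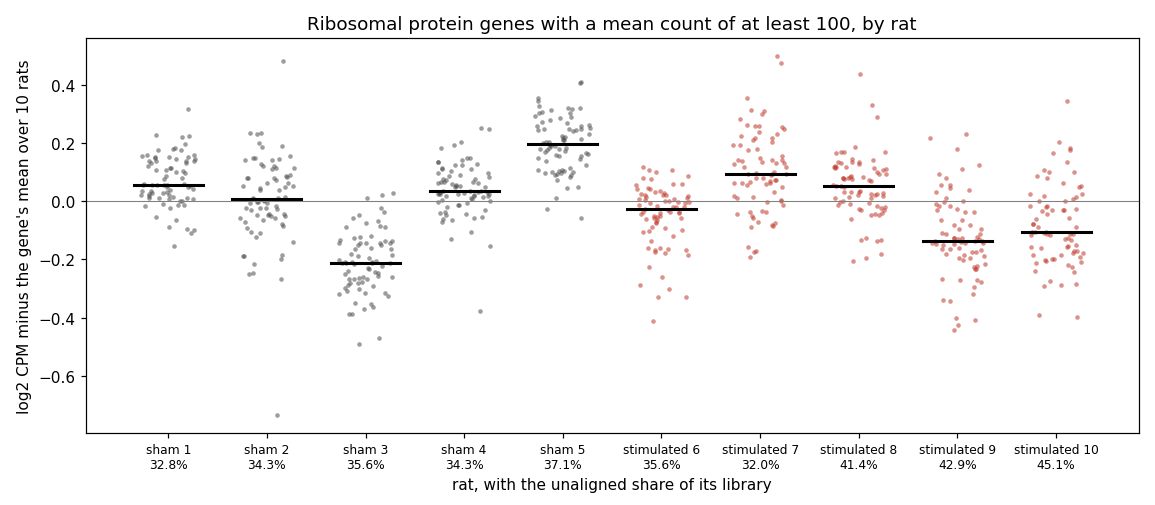
Each point is one of the 76 ribosomal protein genes with a mean count of at least 100, as its log2 CPM minus its mean over the 10 rats (vertical axis), by rat (horizontal axis, with the unaligned share of the library), and the bar is the median. Nearly all points of sham rat 3 lie below 0 and nearly all of sham rat 5 above 0, while no shift separates the sham (grey) from the stimulated rats (red).

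Within groups, the mean pairwise correlation of the log2 CPM of the 78 genes between rats, after subtracting group means, was 0.52, against 0.0006 over all tested features. It was 0.29 without sham rats 3 and 5. Among the marker lists the same measure ran from 0.05 (neuron) to 0.86 (oligodendrocyte). It was 0.68 for blood cells and 0.67 for immediate early genes. A value above that of all tested features is thus not particular to the ribosomal protein genes. Each rat was sequenced as a library of its own, so effects of the animal, its mix of cells and the library cannot be told apart. The correlations are given without a test. Of the 78 genes, 66 had a correlation above 0.5 with the mean of the other members, with a median of 0.74 and the highest, 0.97, for Rpl6. That count was not made for other sets of features. The lowest was Rpl3l at -0.05. Large- and small-subunit means had an r of 0.97 over the 10 rats (rho 0.95, and r 0.89 without sham rats 3 and 5). The within-group SD of log2 CPM was smallest for Rps14, at 0.0755, where all 10 rats lay between 75.9 and 88.8 CPM, and largest for Rpl3l at 1.04. For the genes with at least 100 counts the median SD was 0.162, and it was 0.104 once the mean of the family in each rat was subtracted.

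The level was then set beside the quality of the libraries. Sham rat 5, the highest, had the lowest share of ribosomal RNA records (1.82%) and an unaligned share of 37.1%, the highest of the sham rats. Sham rat 3, the lowest, had 7.42% ribosomal RNA and 35.6% unaligned reads, neither of them an extreme among the sham rats. Of the 3 libraries with the highest unaligned share, rats 9 (42.9%) and 10 (45.1%) were in the lower part of the range, and rat 8 (41.4%) was in the upper part. Over the 10 rats, Pearson's r of the level with the unaligned share was -0.28 and Spearman's rho -0.47. Without rats 9 and 10, the 2 farthest from the median share, r was 0.0007. Leaving them out also shortens the range of the share, and rho was not recomputed. With any 1 rat left out, r lay between -0.50 and -0.17. With the share of ribosomal RNA, r was -0.22 and rho -0.14, and r was -0.23 without rats 1 and 5. No p is given for a mean over chosen genes.

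**Figure D4:**
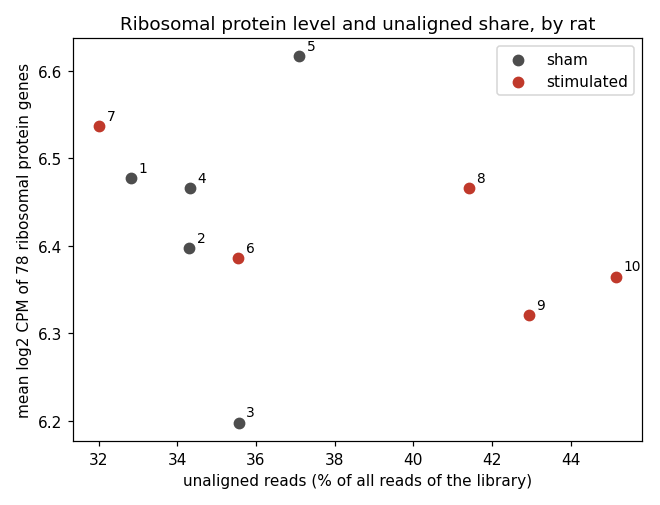
Mean log2 CPM of the 78 tested ribosomal protein genes (vertical axis) against the unaligned share of each library in percent (horizontal axis), one point per rat with its number. Rats 3 and 5, at similar unaligned shares of 35.6% and 37.1%, hold the lowest and the highest level.

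Gene by gene, the slope of log2 expression on the unaligned share was tested with group in the model. None of the 78 genes passed, with 0 at an adjusted p under 0.05 (0% of all tested features) and 0 at an unadjusted p under 0.05 (6.99% of all tested features) in edgeR's quasi-likelihood test. With limma-voom, 0 passed an adjusted p of 0.05 as well. The slope was below 0 for 63 of the 78 genes, where 51% of all tested features had a slope below 0, with a median of -0.009 log2 units per percentage point. The 5 lowest p-values belonged to Rps25 (-0.031, SE 0.0151, adjusted p = 0.741), Rps6 (-0.028, SE 0.0142), Rpl22 (-0.031, SE 0.0178), Rps24 (-0.024, SE 0.0141) and Rpl17 (-0.024, SE 0.0144). With sham rat 5 left out, 6 genes had an unadjusted p under 0.05, all with a slope below 0, and 0 passed the adjusted threshold. The share of all tested features at the unadjusted threshold is not given for that fit. With stimulated rat 7 left out, 34 of the 78 slopes were above 0. The 8 oligodendrocyte markers moved with the unaligned share in the other direction, all 8 with a slope above 0 and an unadjusted p under 0.05, and their part in these slopes was not tested.

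Other genes of translation were read from the same test. At an unadjusted p under 0.05, 6.7% of all tested features were higher and 3.16% lower, and 0 genes of the 5 lists that follow passed the adjusted threshold. Of 19 other genes with a known pyrimidine tract or a part in translation, 1 was higher and 0 lower in the stimulated rats at an unadjusted p under 0.05, and the median log2 fold change was 0.01. Pabpc1, the poly(A)-binding protein, stood at 294 ± 14.9 CPM in the sham and 352 ± 69.4 CPM in the stimulated rats (log2 fold change 0.26, adjusted p = 0.497), and Eif3l at 80.8 ± 6.39 and 91.6 ± 7.45 CPM (0.18, adjusted p = 0.521). Fau, which encodes a small-subunit protein as a fusion with a ubiquitin-like protein and whose symbol the choice of members left out, had an estimate of -0.11 (SE 0.10) on the log2 scale. Of 69 mitochondrial ribosomal protein genes, 0 were higher and 3 lower at an unadjusted p under 0.05 (3.16% of all tested features were lower), with a median of -0.04. The lowest p-values there were those of Mrpl58 (22.2 ± 2.55 against 17.0 ± 1.20 CPM, log2 fold change -0.39, adjusted p = 0.380) and Mrpl54 (46.5 ± 3.80 against 38.1 ± 3.76 CPM, -0.29, adjusted p = 0.409). The groups did not overlap for either gene, as for 3 of the 69 in all, against 1.29% of tested features.

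Of 37 genes of ribosome biogenesis, 2 were higher and 0 lower at an unadjusted p under 0.05, with a median of 0.05. They were Nop58 (34.4 ± 4.18 against 45.6 ± 10.4 CPM, adjusted p = 0.420) and Fbl, which encodes fibrillarin, the methyltransferase of ribosomal RNA (35.1 ± 1.77 against 65.3 ± 50.6 CPM, log2 fold change 0.90, adjusted p = 0.439). Fbl reached 153 CPM in stimulated rat 7. It was at 59.1 CPM in rat 9 and 54.5 CPM in rat 10, while rats 6 and 8, at 30.4 and 30.1 CPM, were below all sham rats. Of 16 regulators of ribosomal protein translation, 3 were higher and 1 lower at an unadjusted p under 0.05, with a median of 0.01. Rheb, the activator of mTOR, stood at 78.7, 199, 78.9, 175 and 107 CPM in stimulated rats 6 to 10 and between 78.4 and 92.5 CPM in the sham rats (log2 fold change 0.59, adjusted p = 0.432). Rats 7, 9 and 10 were thus above and rats 6 and 8 within the sham range for Rheb. Rps6ka3, a kinase that phosphorylates Rps6, stood at 13.7 ± 3.65 against 19.4 ± 4.19 CPM (adjusted p = 0.446). In the same 3 rats the ribosomal protein level did not stand together, with rat 7 at 6.54 and rats 9 and 10 at 6.32 and 6.36.

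The 73 tested subunits of the respiratory chain, another family of short and abundant messages, had 0 genes at an unadjusted p under 0.05 and a median log2 fold change of -0.0014, and their lowest p-values were those of Ndufa10l1 (0.22, adjusted p = 0.563) and Ndufa10 (0.16, adjusted p = 0.568). Their mean pairwise correlation within groups was 0.48, and it was 0.29 for the mitochondrial ribosomal proteins, 0.27 for the other genes of translation, 0.22 for ribosome biogenesis and 0.06 for the regulators. Over the 10 rats, the mean level of the ribosomal protein genes had an r of 0.85 (rho 0.76) with that of the respiratory chain, and r was 0.52 without sham rats 3 and 5. It was 0.93 (rho 0.94) with the mitochondrial ribosomal proteins, 0.79 (rho 0.78) with the other genes of translation, and 0.48 (rho 0.49) with ribosome biogenesis. All of these share the same libraries and their normalisation, and they are given as a description.

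Markers of cell types and of neuronal activity are given beside these results. As in the ribosomal protein genes, 0 of them had an adjusted p under 0.05 in edgeR, and the counts that follow are at an unadjusted p, where the shares of all tested features given above apply. All 8 immediate early genes were higher in the stimulated rats at an unadjusted p under 0.05, with a mean log2 level of 2.71 to 3.38 in the sham and 2.80 to 5.83 in the stimulated rats. So were 4 of 7 astrocyte markers, 2 of 8 microglial and 4 of 7 endothelial markers. None of the 7 neuronal, 8 oligodendrocyte, 5 choroid plexus and 5 blood cell markers tested had an unadjusted p under 0.05. Sham rat 5 had the lowest mean log2 level of blood cell markers, 4.04 against 4.34 to 5.27 in the other rats, and the part of any of these lists in the ribosomal protein level was not tested.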

How the data were processed

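RNA of 10 rat hippocampi (5 sham, 5 stimulated) was sequenced as short single reads. The authors aligned the reads to the rat genome rn4 with BWA, counted them with a script of their own and deposited raw counts per transcript record, with a row of unaligned reads that was set aside here and used for the unaligned share. The methods name an Ensembl annotation while the rows carry RefSeq identifiers. The use of strand and the counting of reads shared with pseudogenes or paralogs are not stated. Of the members, 74 have at least 1 pseudogene symbol in RefSeq GRCr8, so single gene counts are uncertain. The study's methods give 4 stimulated rats for the RNA data, the labels 5, and the labels were followed.

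Features with a summed count of at least 46 (the 30th percentile) were tested with edgeR 4.0.16 (TMM, quasi-likelihood, Benjamini-Hochberg over 22447 features). The slope fit added the unaligned share to the group. CPM use TMM library sizes, and log2 CPM a prior count of 2. Intervals of fold changes use 8 residual degrees of freedom. DESeq2 1.42.0, limma 3.58.1, other normalisations and filters and fits without each rat were alternatives. The edgeR script was checked on simulated data with changes larger than any estimated for the members. That check therefore does not show whether changes of the size seen here would be called. Symbols and start sequences came from RefSeq GRCr8. Counting error only limits single values, and depth was 13552309 to 24086059 aligned counts. The members and lists (other genes of translation, mitochondrial ribosomal proteins, ribosome biogenesis, regulators, respiratory chain, cell type markers) were chosen with earlier results of these data known. Genes were named by highest CPM, lowest p for group or slope, extreme fold change or SD, known function or paralogy, and from each list other than the markers the 2 with the lowest p. No curated record of the count matrix mapped to the symbols Rpl7l1, Rpl10l, Rpl36al, Rpl39l and Rps27l, so no gene was analysed under these names. The members did include Rpl36al1, which was tested, and Rpl39l1, which was not. Whether these are the same paralogs under other symbols was not checked. An item withheld from this text is not reported here.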

Additional observations from a re-analysis of the deposited data

Results flagged for a closer look

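Within the sham group, 1 value lay apart from the other 4 for 2 genes, measured as the gap to the nearest rat divided by the range of the group, against a limit of 0.71. For Rplp1 the ratio was 0.715, with sham rat 3 at 180 CPM and the others between 227 and 246 CPM. For Rpl13a it was 0.715 as well, with sham rat 3 at 127 CPM and the others between 146 and 153 CPM. In all, 58 sets of 5 rats were examined, and chance alone gives about 1 in 20, here 2.9. Both values belong to the rat with the lowest mean level of the family.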

How the results depend on the processing

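No ribosomal protein gene passed an adjusted p of 0.05 for group or for slope under any alternative fit run, including one added after the data were seen, with sham rats 3 and 5 both left out. The number of genes at an unadjusted p under 0.05 was 0 with the unaligned share as a covariate, 2 without sham rats 3 and 5, and 0 to 7 when one rat was left out, the 7 without stimulated rat 8 and the 0 without stimulated rat 10. Without sham rat 3 it was 5, all lower. The share of all tested features at that threshold is not given for these fits, so the counts cannot be read against a background. The number above 0 ran from 13 (without stimulated rat 7) to 39 (without sham rat 5), and was 39 with the unaligned share as a covariate. The median log2 fold change stayed below 0 in all 20 alternatives, between -0.10 (without sham rat 3) and -0.0018. The correlation with the unaligned share was -0.38 for the share of aligned counts without ribosomal RNA records (added after the data were seen), -0.15 for the share of aligned counts, -0.14 with library size alone, 0.0007 without the 2 farthest rats, and -0.50 (without sham rat 3) to -0.17 (without stimulated rat 7) when one rat was left out. It was not computed within groups of 5 rats.

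Of the 520 refitted fold changes of the 26 named genes, 47 had the opposite sign, and none of these passed the adjusted threshold. They fell in 9 genes, whose log2 fold changes in the main fit ran from -0.0735 (Rps25) to 0.0387 (Rps4x). With at least 10 counts in 4 samples, Rpl11 was at -0.0001, Rps3 at -0.0037 and Rps6 at -0.0030. With DESeq2 they were at -0.0008, -0.0043 and -0.0038, with RLE size factors at -0.0008, -0.0042 and -0.0037, and with no filter at -0.0062, -0.0097 and -0.0091. Without sham rats 3 and 5, Rpl11 was at -0.0041 and Rps3 at -0.0362. Rpl4 was at 0.0170 with library size alone and at 0.0587 with the covariate, where Rps24 was at 0.0483 and Rps25 at 0.0537. Leaving out one rat gave -0.0620 to 0.0582 for Rpl11, -0.0535 to 0.0744 for Rpl17, -0.0536 to 0.0409 for Rpl4, -0.1544 to 0.0054 for Rps25, -0.0235 to 0.0649 for Rps27a, -0.0488 to 0.0329 for Rps3, -0.0072 to 0.0818 for Rps4x and -0.0677 to 0.0666 for Rps6. The cause of these shifts was not tested. No paired analysis was possible because the labels number the rats 1 to 10 across both groups and tie no sham rat to a stimulated rat.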
